A study of Mus musculus with 11 samples.

Results

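Transcripts of skeletal muscle were followed through 11 RNA-seq libraries of the mouse inguinal mammary gland by way of 36 genes that were chosen by name as parts of the muscle fibre, out of the 22196 genes to which the quantified transcripts were assigned. The rule went by what the genes encode and set no threshold on a measured value, but earlier results of these data were known when it was made. They comprise 11 fast-fibre myofilament genes, 7 slow-fibre myofilament genes, 6 sarcomere genes common to fibre types, 6 genes of excitation and calcium handling and 6 genes of energy metabolism. All 36 had at least 1 read in some library, and 29 passed the filter on low counts and entered the test between genotypes. The 7 that did not pass were Myh7, Myl2, Myl3, Tnnt1, Tnni1, Tnnc1 and Cox6a2, of which all but Cox6a2 are slow-fibre genes.

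The glands came from mice 16 days after delivery, labelled PND16.5, with free access to milk and to normal chow. The 6 Knockout libraries are labelled Tsc1-fl/fl; Adipoq-Cre-Tg/+ and the 5 Wild-Type libraries Tsc1-fl/fl; Adipoq-Cre-+/+, so both groups carry the floxed Tsc1 alleles and they differ in the Cre transgene. Adipoq-Cre is active in adipocytes, which are some of the cells of the gland, and no Cre-carrying control without the floxed alleles is among the libraries used here. The labels call the libraries replicates without naming animals, so the p-values measure the spread between these samples.

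Skeletal muscle contracts through sarcomeres, in which myosin thick filaments pull on actin thin filaments, with troponin on the thin filament answering to calcium released from the sarcoplasmic reticulum. Most of these proteins exist as fast and slow versions encoded by separate genes: Myh4, Myh1 and Myh2 encode the heavy chains of the fast fibre types known as 2B, 2X and 2A, and Myh7 that of slow fibres, which is also a heart myosin. The inguinal mammary gland lies in the subcutaneous fat between the skin, with its thin sheet of muscle, and the body wall, and mammary epithelium and adipocytes are not known to form sarcomeres.

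The 11 libraries held between 25817975 and 37894237 estimated reads, and genes of milk protein summed to between 414253 and 747909 CPM (counts per 1e6 reads, with library sizes scaled by the trimmed mean of M-values). Tsc1 itself stood at 10.1 ± 1.33 CPM (SD, n = 6) among Knockout libraries, against 10.7 ± 1.11 CPM (SD, n = 5) among those of Wild-Type, a log2 fold change of -0.09 ± 0.11 (SE) with an edgeR adjusted p of 0.772, and the ranges overlapped. Over all genes, edgeR's quasi-likelihood test called 7 of 12716 tested genes between the genotypes at a Benjamini-Hochberg adjusted p under 0.05, 6 higher and 1 lower in Knockout. In whole tissue, fewer cells of a type and less RNA per cell cannot be told apart.

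Sequence shows how alike the 3 fast heavy chain genes are, which bears on how their reads are shared out. They lie side by side on chromosome 11 of GRCm38.p6, on the plus strand, with Myh2 at chr11:67171027-67197517, Myh1 at chr11:67200052-67224575 and Myh4 at chr11:67238029-67260446. The first 90 coding bases from the GENCODE M21 transcripts are given with capitals at the 7 positions where the 3 genes are not all the same.
Myh4: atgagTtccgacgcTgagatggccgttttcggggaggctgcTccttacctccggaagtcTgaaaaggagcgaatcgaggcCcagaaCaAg
Myh1: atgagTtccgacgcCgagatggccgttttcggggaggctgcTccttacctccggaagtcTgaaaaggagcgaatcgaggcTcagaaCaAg
Myh2: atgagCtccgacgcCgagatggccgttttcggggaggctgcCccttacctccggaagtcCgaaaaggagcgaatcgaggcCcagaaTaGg

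Myh4 and Myh1 differed at 2 of these 90 bases, and Myh2 differed from each of them at 6. Over the whole coding sequence, 31.4% of the 31-base words of Myh4, 41.4% of those of Myh1 and 40.2% of those of Myh2 also occurred in another gene. Reads from the shared stretches are divided between these genes by the quantifier, so small counts of a heavy chain gene beside a large count of its neighbour are uncertain. The slow gene Myh7 shared 34.2% of its words with other genes, but of the words of Myh4, Myh1 and Myh2 0.725%, 0.586% and 0.448% were in Myh7. In the other members the share was at most 5.16%, in Acta1.

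The regions before the starts of Myh4 and Myh1 are shown because these neighbours led in different libraries. Each is 250 bases long, from RefSeq's annotation of GRCm38.p6, on the plus strand, at chr11:67237562-67237811 for Myh4 and at chr11:67199852-67200101 for Myh1. RefSeq's starts differ from the gene starts given above. The Myh1 region therefore runs past the start given for Myh1, and the Myh4 region ends before that given for Myh4. Capitals mark CAGCTG, a palindrome of the E-box type bound by myogenic bHLH factors, and TATAAA on either strand, which reads TTTATA when it lies on the minus strand.
Myh4: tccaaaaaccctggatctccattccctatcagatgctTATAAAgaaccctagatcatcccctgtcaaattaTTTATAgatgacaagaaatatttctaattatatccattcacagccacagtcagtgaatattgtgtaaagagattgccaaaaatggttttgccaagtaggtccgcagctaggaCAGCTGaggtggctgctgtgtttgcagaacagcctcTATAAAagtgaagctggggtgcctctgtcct
Myh1: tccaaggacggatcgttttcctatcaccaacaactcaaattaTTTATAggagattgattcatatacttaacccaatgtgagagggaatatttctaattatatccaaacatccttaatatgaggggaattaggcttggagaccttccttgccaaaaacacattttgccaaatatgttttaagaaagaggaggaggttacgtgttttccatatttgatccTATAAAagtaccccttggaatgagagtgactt

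The Myh4 sequence held 1 CAGCTG and 3 TATAAA, and the Myh1 sequence held 2 TATAAA and no CAGCTG. RefSeq's promoter table, whose windows reach 50 bases past the start, had an entry for 27 of the 36 genes. CAGCTG was in a window of 14 of these 27 genes (51.9%), against 18.3% of all 27025 genes of the table. TATAAA was in 7 of 27 (25.9%) against 15.7% of all genes. These are matches of letters, and none was tested as a binding site.

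The level of the 36 genes together differed widely between libraries of the same genotype. Their summed level was 3614 CPM in Knockout 1 and 567 CPM in Knockout 2, and in Knockout 3 to Knockout 6 it was 32.1, 9.68, 23.4 and 82.4 CPM. In Wild-Type 1 to Wild-Type 5 it was 388, 48.4, 11.6, 266 and 42.3 CPM. Knockout 1 was thus the highest, Knockout 2, Wild-Type 1 and Wild-Type 4 came next, and the lowest library of each group, Knockout 4 and Wild-Type 3, lay close together.

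**Figure D1:**
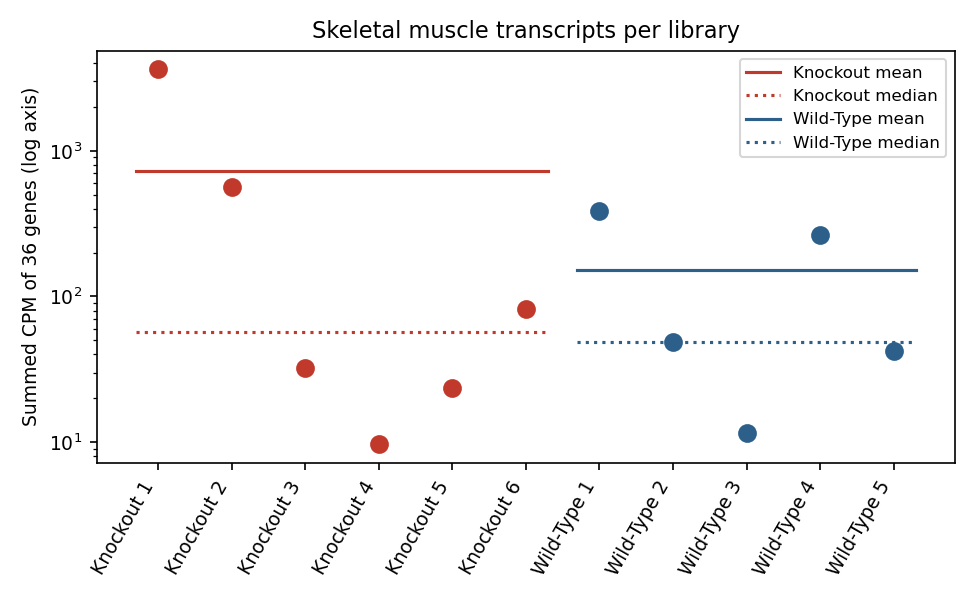
Summed CPM of the 36 skeletal muscle genes (log axis) in each of the 6 Knockout and 5 Wild-Type libraries, with the mean (solid line) and median (dotted line) of each group. Knockout 1 stands at 3614 CPM, while the medians of the groups, 57.3 CPM for Knockout and 48.4 CPM for Wild-Type, lie close to each other.

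As a share of all reads, these genes took 0.442% in Knockout 1, 0.0646% in Knockout 2 and 0.000939% in Knockout 4. The highest sum was 373 times the lowest. The Knockout mean was 722 ± 1433 CPM (SD, n = 6) and the Wild-Type mean 151 ± 167 CPM (SD, n = 5), a log2 ratio of means of 2.25. Without Knockout 1 the Knockout mean was 143 ± 239 CPM (SD, n = 5) and the log2 ratio -0.08, so the difference between the group means rested on that library.

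Gene by gene the pattern was the same in most of the set. Knockout 1 was the highest library for 30 of the 36 genes, Knockout 2 for Myh1, Myh2, Actn2 and Mb, and Knockout 6 for Myl2 and Myl3. Among tested genes Knockout 1 was highest for 25 of 29, where it was highest for 8.65% of all tested genes. Knockout 2 was next highest for 19 of the 36 and Wild-Type 1 for 7. At the low end 12 genes had no read in Wild-Type 3 and 11 none in Knockout 4, whereas all 36 had reads in Knockout 1, Knockout 6 and Wild-Type 1.

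**Figure D2:**
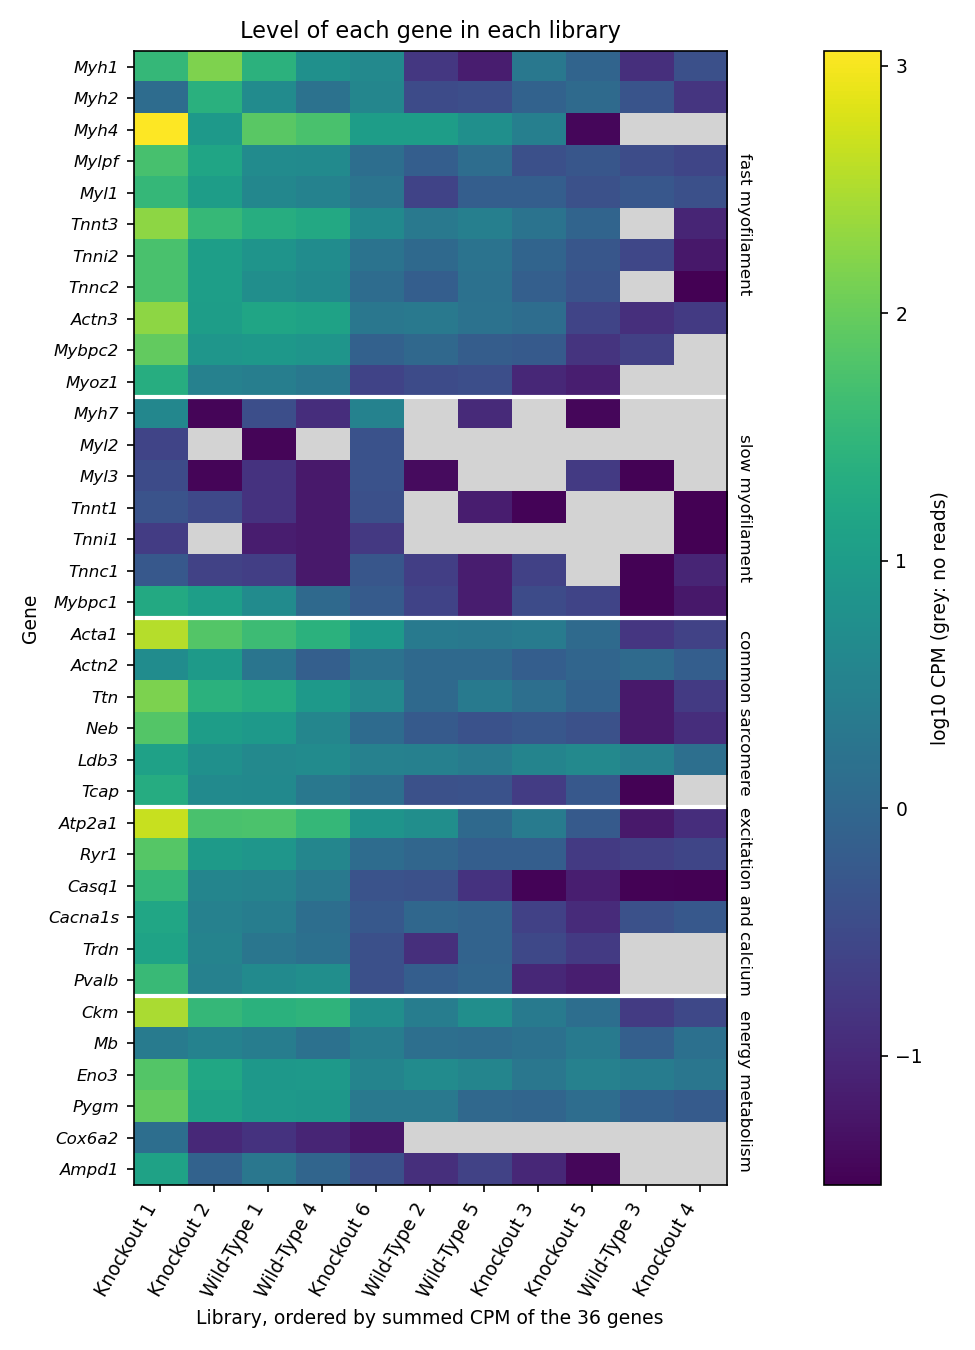
Level of each of the 36 genes (rows, grouped by role) in each library (columns, ordered by the summed level), as log10 CPM, with grey for no reads. Most genes fade from left to right together, while Mb and Ldb3 change less, with Ldb3 still highest in Knockout 1 and then Knockout 2. Myh1 and Myh2 peak in Knockout 2, and the slow genes from Myh7 to Tnnc1 stand out in Knockout 1 and Knockout 6.

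Few genes of the whole table varied as widely. The SD of log2 CPM over the 11 libraries had a median of 2.64 among the 29 tested members and of 0.242 among all tested genes. Of the 100 tested genes with the widest SD (0.786% of those tested), 25 were members, which is 86.2% of the tested members, and 8 more were on the other muscle lists. The biological coefficient of variation within genotypes had a median of 164% among the members and 17.7% among all genes.

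No member was called between the genotypes. Of the 29 tested members 0 had an adjusted p under 0.05 in edgeR, which called 0.055% of all tested genes, and 0 had an unadjusted p under 0.05, which 12.4% of all tested genes had. DESeq2, the alternative test, gave a p-value to 30 members and also called 0, against 0.837% of its tested genes. It gave 1 member an unadjusted p under 0.05, as it did 10.7% of its tested genes. Some members, Myh4 and Casq1 among them, had no adjusted p in DESeq2 and so could not be called there. The 2 groups of libraries overlapped for all 29, while they did not overlap for 1.32% of all tested genes. All 29 fitted log2 fold changes were above 0, with a median of 2.13, against 48.3% of all tested genes above 0 and a median of -0.01. Without Knockout 1, 26 members could be tested, 0 were called (0.0159% of all genes), 10 fold changes were above 0 and 16 below, and the median was -0.09.

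**Figure D3:**
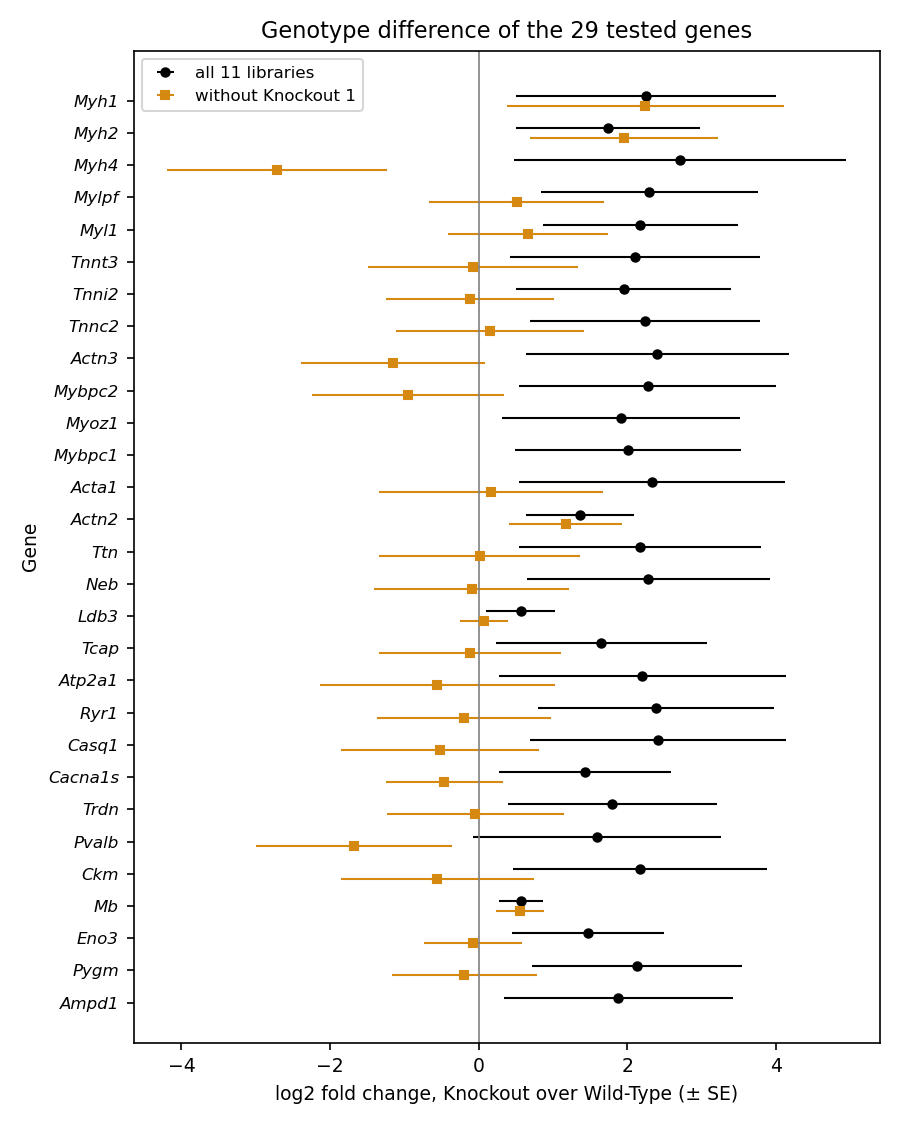
Fitted log2 fold change of Knockout over Wild-Type with its SE for the 29 tested genes, from all 11 libraries (black circles) and without Knockout 1 (orange squares; Myoz1, Mybpc1 and Ampd1 did not pass the filter then). All black points lie above 0, from 0.57 for Ldb3 to 2.71 for Myh4, and without Knockout 1 the points lie on either side of 0, with Myh4 at -2.71.

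The 3 fast heavy chain genes did not move in step with each other. Myh4, the heavy chain of 2B fibres, ranged in Knockout from 0 CPM in Knockout 4 to 1148 CPM in Knockout 1, with a median of 5.92, and was at 76.5, 10.5, 0, 56.0 and 5.76 CPM in Wild-Type 1 to 5. Myh1, the heavy chain of 2X fibres, ranged in Knockout from 0.391 to 149 CPM with a median of 3.16, and was at 26.8, 0.167, 0.126, 5.95 and 0.0702 CPM in Wild-Type 1 to 5. Knockout 1 was far above the next library, Wild-Type 1, in Myh4, but in Myh1 the top library was Knockout 2, at 4.38 times the 34.0 CPM of Knockout 1.

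Myh2, the heavy chain of 2A fibres, ranged in Knockout from 0.150 to 24.3 CPM with a median of 1.22, and was at 4.97, 0.334, 0.471, 1.61 and 0.386 CPM in Wild-Type 1 to 5. Knockout 2 was the highest, and Knockout 1, at 1.27 CPM, lay near the middle of the libraries for this gene. Knockout 1 held 127 times the Myh4 level of Knockout 2, but 0.228 times its Myh1 level and 0.0521 times its Myh2 level. Their fold changes between genotypes were 2.71 ± 2.23 (SE) on the log2 scale for Myh4, 2.26 ± 1.75 for Myh1 and 1.74 ± 1.24 for Myh2, with edgeR adjusted p of 0.651, 0.630 and 0.595. Without Knockout 1 the Myh4 value turned to -2.71 ± 1.48, and without Knockout 2 the Myh2 value was -0.09 and the Myh1 value 0.34. These 3 genes were picked out after their values had been seen.

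The make-up of the heavy chain reads differed between libraries. Shares are of the reads of Myh4, Myh1, Myh2 and Myh7, whose 3 fast coding sequences are 5820 to 5829 bases long, with Wilson 95% intervals that cover counting error only. Myh4 made up 96.7% (96.5 to 96.8) of 53443 reads in Knockout 1 but 4.94% (4.39 to 5.56) of 5340 reads in Knockout 2, where Myh1 made up 81.7% (80.6 to 82.7) and Myh2 13.4% (12.5 to 14.3). The 2 libraries with the most muscle reads thus had different leading heavy chains.

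Among Wild-Type libraries Myh4 led in all but Wild-Type 3, with 70.4% (68.8 to 72.0) of 3102 reads in Wild-Type 1, 87.9% (86.5 to 89.3) of 2097 in Wild-Type 4, 95.5% (92.2 to 97.4) of 264 in Wild-Type 2 and 91.1% (86.0 to 94.5) of 180 in Wild-Type 5. Knockout 3 had 49.4% (42.1 to 56.8) Myh4 and 36.2% (29.4 to 43.6) Myh1 of 174 reads. Knockout 6 had 48.4% (44.9 to 52.0) Myh4, 19.4% (16.8 to 22.3) Myh1, 17.6% (15.05 to 20.4) Myh2 and 14.6% (12.3 to 17.3) Myh7 of 768 reads. Knockout 5 had 54.2% (41.7 to 66.3) Myh2 and 42.4% (30.6 to 55.1) Myh1 of 59 reads. Knockout 4 had 72.2% (49.1 to 87.5) Myh1 of 18 reads, and Wild-Type 3 had 78.9% (56.7 to 91.5) Myh2 of 19 reads. In these 2 libraries no Myh4 read was counted, which leaves room for a share of up to 17.6% and 16.8% by the Wilson bound. Within each genotype, then, the Myh4 share differed by intervals that do not meet, between Knockout 1 and Knockout 2 and between Wild-Type 1 and Wild-Type 4.

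**Figure D4:**
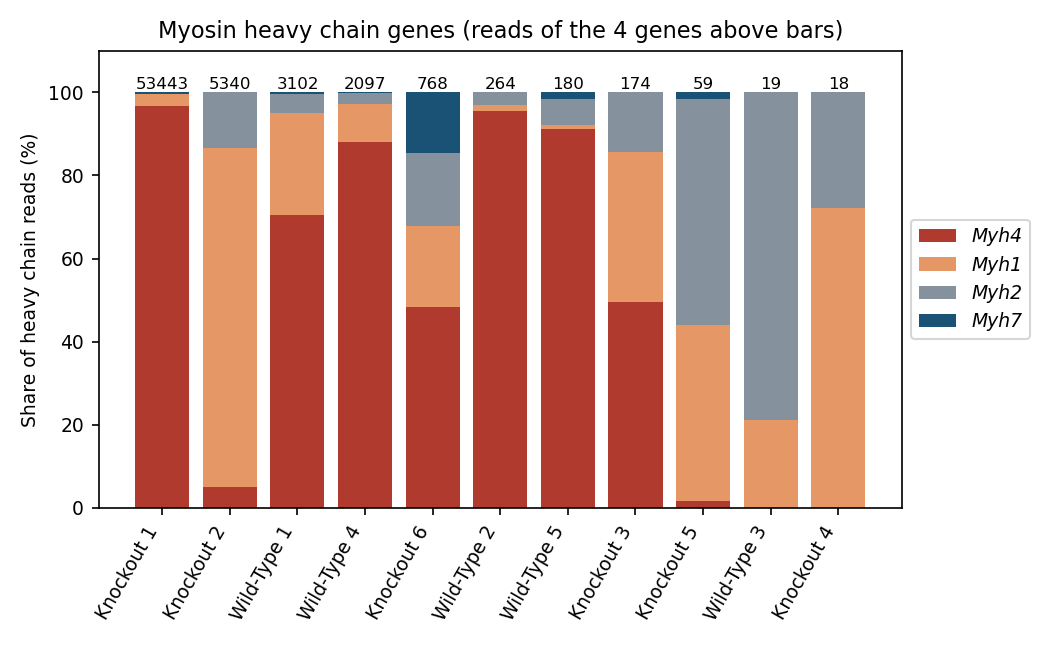
Share of Myh4, Myh1, Myh2 and Myh7 in the reads of these 4 myosin heavy chain genes (%), per library in the order of summed muscle level, with the number of reads above each bar. Myh4 fills 96.7% of Knockout 1, Myh1 81.7% of Knockout 2, and Myh7 is visible as 14.6% of Knockout 6.

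The fast light chain and troponin genes went with the total rather than with a heavy chain type. Tnnt3, fast troponin T, which anchors troponin to tropomyosin, ranged in Knockout from 0.0902 to 187 CPM with a median of 3.12, and was at 21.9, 2.17, 0, 17.7 and 2.88 CPM in Wild-Type 1 to 5. Tnnc2, the fast calcium-binding troponin C, ranged from 0.0301 to 54.9 CPM with a median of 0.989, and was at 5.43, 0.710, 0, 4.46 and 1.51 CPM in Wild-Type 1 to 5. Myl1, a fast essential light chain of myosin, ranged from 0.391 to 33.6 CPM with a median of 1.20, and was at 3.99, 0.251, 0.534, 3.25 and 0.702 CPM in Wild-Type 1 to 5.

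In all 3, Knockout 1 was the highest, Knockout 2 next, and Wild-Type 1 and 4 the highest of their group, and the groups overlapped. The edgeR log2 fold changes were 2.10 ± 1.68 (adjusted p 0.641) for Tnnt3, 2.24 ± 1.55 (0.585) for Tnnc2 and 2.18 ± 1.31 (0.528) for Myl1, and without Knockout 1 they were -0.08, 0.15 and 0.66. The ratio of Knockout 1 to Knockout 2 in CPM was 5.37 for Tnnt3, 4.98 for Tnnc2 and 3.15 for Myl1. The remaining fast genes, Mylpf, Tnni2, Actn3, Mybpc2 and Myoz1, were also highest in Knockout 1, at 21.2 CPM (Myoz1) to 189 CPM (Actn3). Actn3, the Z-disc actinin known from fast fibres, was 17.7 times as high in Knockout 1 as in Knockout 2.

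Slow fibre genes were scarce throughout, and they stood out in a library that was not rich in muscle. Myh7, the slow heavy chain, ranged in Knockout from 0 to 3.93 CPM with a median of 0.0354, and was at 0.385, 0, 0, 0.121 and 0.105 CPM in Wild-Type 1 to 5. The high values were Knockout 1 with 177 reads and Knockout 6 with 112 reads, and no other library had more than 11. Knockout 6 held nearly the Myh7 level of Knockout 1, at 3.19 CPM, although its fast myofilament genes summed to 32.2 CPM and those of Knockout 1 to 1872 CPM.

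Tnnc1, the slow and cardiac troponin C, ranged in Knockout from 0 to 0.555 CPM with a median of 0.235, and was at 0.210, 0.209, 0.0314, 0.0607 and 0.0702 CPM in Wild-Type 1 to 5. Tnnt1, slow troponin T, ranged from 0 to 0.444 CPM with a median of 0.170, and was at 0.140, 0, 0, 0.0607 and 0.0702 CPM in Wild-Type 1 to 5. Knockout 1 and Knockout 6 were the 2 highest libraries of each, with 20 and 14 reads of Tnnt1, and the groups overlapped.

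Myl3, the slow essential light chain, ranged in Knockout from 0 to 0.427 CPM with a median of 0.109, and was at 0.140, 0.0418, 0.0314, 0.0607 and 0 CPM in Wild-Type 1 to 5. Myl2, the slow regulatory light chain, was counted in 3 libraries only, with 15 reads (0.427 CPM) in Knockout 6, 12 reads (0.266 CPM) in Knockout 1 and 1 read (0.0350 CPM) in Wild-Type 1. Both were highest in Knockout 6. Tnni1, slow troponin I, had at most 9 reads, in Knockout 1, and 6 in Knockout 6. None of these 6 slow genes passed the filter on low counts, so the fit with the filter does not test them. Fitted without the filter, all 36 members entered, edgeR called 0 of them (0.04% of all genes in that fit), 1 had an unadjusted p under 0.05 (10.8% of all), and all 36 fold changes were above 0.

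Mybpc1, myosin-binding protein C of the slow type, followed another course and was the only slow gene with enough reads for the test. It ranged in Knockout from 0.0601 to 17.9 CPM with a median of 0.478, and was at 4.87, 0.251, 0.0314, 1.09 and 0.0702 CPM in Wild-Type 1 to 5. Knockout 1 and Knockout 2 were the highest, at 17.9 and 11.2 CPM, and Knockout 6 was low, at 0.626 CPM, unlike Myh7 and the slow light chains. Its edgeR log2 fold change was 2.01 ± 1.52 (adjusted p 0.618), or 3.76 without Wild-Type 1, and the groups overlapped.

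The balance of fast to slow genes was set per length, as the summed TPM (transcripts per 1e6, a measure that allows for transcript length) of 12 fast genes, the fast myofilament genes other than Myoz1 with Atp2a1 and Pvalb, over 6 slow ones, Myh7, Myl2, Myl3, Tnnt1, Tnni1 and Tnnc1. Fast TPM was 318 times slow TPM in Knockout 1, 215 times in Knockout 2, 189 times in Wild-Type 4 and 91.8 times in Wild-Type 1. In Knockout 6 it was 6.81 times. In the other 6 libraries, which had 2 to 8 slow reads each, it ran from 1.66 times in Knockout 4 to 78.9 times in Wild-Type 5. Fast TPM was thus above slow TPM in every library, by least in Knockout 4, where the ratio rests on 5 slow reads, and by least in Knockout 6 among the 5 libraries with 12 or more slow reads. In Knockout 4, 1 read of Tnni1 gave 0.668 of the 0.987 slow TPM. With CPM in place of TPM the lowest log2 ratio was that of Knockout 6, at 2.94, against 3.49 in Knockout 4.

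In reads, slow genes were 11.5% (Wilson 95% interval 10.03 to 13.2) of the fast and slow reads in Knockout 6, with 180 slow reads, and 0.242% (0.214 to 0.273) in Knockout 1, with 258. The share was 0.179% (0.113 to 0.283) in Knockout 2, 0.413% (0.286 to 0.596) in Wild-Type 1 and 0.229% (0.131 to 0.400) in Wild-Type 4. In the other 6 libraries the shares ran from 0.976% (0.448 to 2.11) in Wild-Type 2 to 8.20% (3.55 to 17.8) in Knockout 4, which had 61 such reads in all. Knockout 6 therefore had a slow share above that of every library with more than 61 fast and slow reads, by intervals that do not meet. These intervals cover counting error only and compare single libraries, not conditions. Mybpc1 is not in this slow sum. With Mybpc1 counted as slow, an alternative added after the data were seen, the slow share was 12.7% (11.2 to 14.5) in Knockout 6, 3.34% (3.02 to 3.71) in Knockout 2, 2.41% (2.08 to 2.80) in Wild-Type 1, 0.990% (0.932 to 1.05) in Knockout 1 and 0.909% (0.686 to 1.20) in Wild-Type 4. The interval of Knockout 6 then met those of Knockout 4, Knockout 5 and Wild-Type 3, which then had 3 to 13 slow reads, and not those of the other 7. The TPM ratio fell to 58.5 in Knockout 2 and was 168 in Knockout 1, 135 in Wild-Type 4, 55.2 in Wild-Type 1 and 6.64 in Knockout 6. The mean log2 ratio in TPM, without Mybpc1, was 4.67 ± 2.92 (SD, n = 6) over Knockout libraries, against 5.56 ± 1.76 (SD, n = 5) over Wild-Type ones, and the groups overlapped. Without Knockout 4 the Knockout mean was 5.46.

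**Figure D5:**
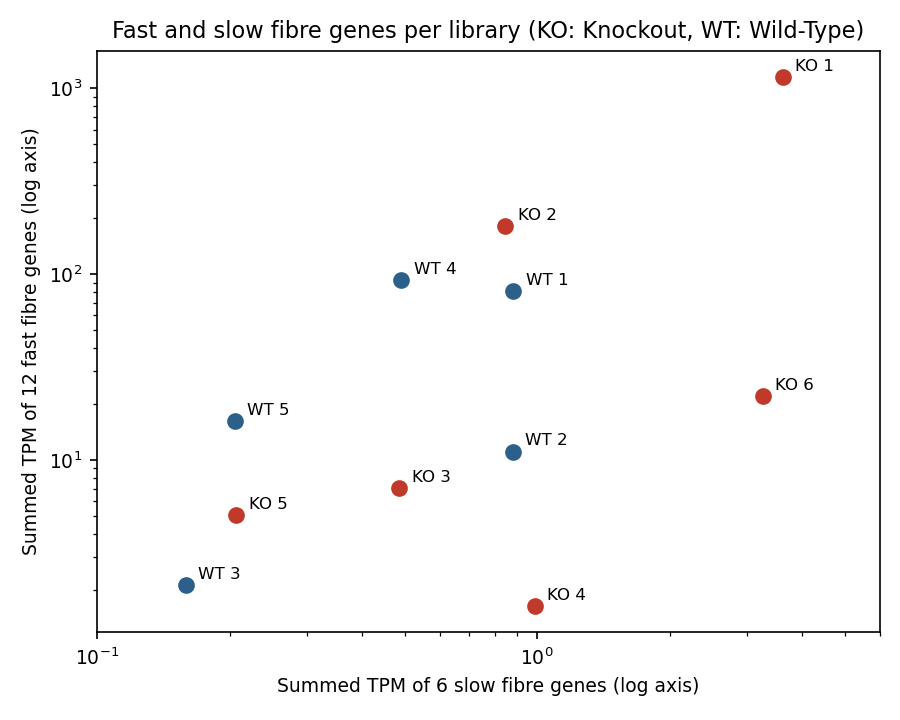
Summed TPM of 12 fast fibre genes against summed TPM of 6 slow fibre genes, both on log axes, with a point per library (red, Knockout; blue, Wild-Type). Knockout 1 is high in both, at 1148 and 3.62 TPM, and Knockout 6 has nearly as much slow signal (3.25 TPM) with far less fast signal (22.1 TPM).

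Each fast gene set against its slow counterpart gave the same contrast between Knockout 1 and Knockout 6. The TPM ratio of Tnnt3 to Tnnt1 was 453 in Knockout 1 and 9.26 in Knockout 6, and that of Tnni2 to Tnni1 was 317 and 9.06. For the calcium-binding pair Tnnc2 to Tnnc1 it was 101 and 2.50. For the regulatory light chains, Mylpf to Myl2, it was 179 and 2.94, and for the essential light chains, Myl1 to Myl3, 253 and 11.4. Myh4 to Myh7 stood at 296 and 3.36. All 6 pairs were thus lower in Knockout 6, by factors that rest on 6 to 112 slow reads there.

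Sarcomere genes common to fibre types followed the fast genes, but 2 of them, Ldb3 and Actn2, varied less and rose mainly in Knockout 1 and Knockout 2. Acta1, skeletal muscle actin of the thin filament, ranged in Knockout from 0.241 to 350.0 CPM with a median of 5.50, and was at 40.8, 2.30, 0.157, 25.7 and 2.04 CPM in Wild-Type 1 to 5. Tcap, the titin cap of the Z-disc, ranged from 0 to 20.9 CPM with a median of 0.944, and was at 4.45, 0.418, 0.0314, 2.10 and 0.421 CPM in Wild-Type 1 to 5. Knockout 1 was highest and Wild-Type 3 or Knockout 4 lowest in each, and the groups overlapped. Titin (Ttn) and nebulin (Neb), which span the thick and thin filaments, were likewise highest in Knockout 1, at 142 and 66.9 CPM, and lowest in Wild-Type 3, at 0.0628 CPM each.

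Ldb3, a Z-disc protein that binds actinin, ranged in Knockout only from 1.44 to 12.7 CPM with a median of 3.95, and was at 4.24, 2.92, 2.98, 4.95 and 2.42 CPM in Wild-Type 1 to 5. Actn2, the actinin of all fibre types, ranged in Knockout from 0.692 to 9.38 CPM with a median of 1.27, and was at 1.82, 1.13, 1.16, 0.729 and 1.09 CPM in Wild-Type 1 to 5. Apart from Knockout 1 and Knockout 2 these 2 genes stayed within a narrow band, in libraries where Acta1 moved by more than 100-fold. The edgeR log2 fold changes were 2.33 ± 1.79 (adjusted p 0.623) for Acta1, 1.65 ± 1.42 (0.666) for Tcap, 0.57 ± 0.46 (0.644) for Ldb3 and 1.37 ± 0.72 (0.476) for Actn2, and without Knockout 1 they were 0.17, -0.11, 0.07 and 1.17. Without Knockout 2, its highest library, the Actn2 value was 0.62.

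Genes of excitation and calcium handling followed the same libraries, and Atp2a1 had the widest range on the log2 CPM scale of the tested members after Myh4. Atp2a1, the calcium pump of the fast sarcoplasmic reticulum, ranged in Knockout from 0.120 to 475 CPM with a median of 4.69, and was at 56.9, 5.56, 0.0628, 34.3 and 1.09 CPM in Wild-Type 1 to 5. Pvalb, the calcium buffer parvalbumin of fast fibres, ranged from 0 to 38.9 CPM with a median of 0.249, and was at 4.69, 0.710, 0, 5.47 and 0.948 CPM in Wild-Type 1 to 5. Wild-Type 1 was second to Knockout 1 in Atp2a1 and Wild-Type 4 in Pvalb, and the groups overlapped.

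Casq1, the calcium store protein of the fast reticulum, ranged in Knockout from 0.0301 to 34.3 CPM with a median of 0.264, and was at 3.33, 0.418, 0.0314, 2.13 and 0.140 CPM in Wild-Type 1 to 5. Ryr1, the calcium release channel, ranged from 0.184 to 72.3 CPM with a median of 0.973, and was at 7.70, 0.961, 0.220, 3.83 and 0.702 CPM in Wild-Type 1 to 5. All 6 genes of the role, with Cacna1s and Trdn of the same release unit at 15.3 and 13.8 CPM, were highest in Knockout 1. The edgeR log2 fold changes were 2.20 ± 1.93 (adjusted p 0.675) for Atp2a1, 1.60 ± 1.67 (0.734) for Pvalb, 2.42 ± 1.72 (0.596) for Casq1 and 2.39 ± 1.59 (0.571) for Ryr1. Without Knockout 1 all 6 genes of the role had values below 0, from -1.68 for Pvalb to -0.04 for Trdn, and none was called.

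Energy genes included a steep course, that of Ckm, and a flatter one, that of Mb. Ckm, muscle creatine kinase, ranged in Knockout from 0.301 to 299 CPM with a median of 3.95, and was at 25.6, 2.63, 0.189, 29.3 and 5.48 CPM in Wild-Type 1 to 5. Eno3, the muscle enolase, ranged from 1.86 to 67.4 CPM with a median of 3.30, and was at 8.51, 4.85, 2.54, 8.72 and 3.72 CPM in Wild-Type 1 to 5. Both were highest in Knockout 1, with overlapping groups, and Eno3 kept a level of at least 1.86 CPM in libraries with little muscle signal.

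Mb, the oxygen store myoglobin known from oxidative fibres and heart, ranged in Knockout only from 1.47 to 3.21 CPM with a median of 2.35, and was at 2.63, 1.42, 0.722, 1.52 and 1.299 CPM in Wild-Type 1 to 5. Knockout 2 was the highest with 94 reads, Knockout 1 lay at 2.46 CPM with 111 reads, and the groups overlapped. The edgeR log2 fold changes were 2.17 ± 1.70 (adjusted p 0.633) for Ckm, 1.48 ± 1.02 (0.584) for Eno3 and 0.57 ± 0.30 (0.457) for Mb. Mb had the smallest coefficient of variation of the 29 tested members, 34.0%, and without Knockout 1 its value was 0.55, while those of Ckm and Eno3 were -0.56 and -0.08. Pygm and Ampd1, of glycogen and adenine nucleotide breakdown, were highest in Knockout 1 at 89.3 and 12.9 CPM, and the heart and muscle subunit Cox6a2 had 61 reads there and at most 4 elsewhere.

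Other genes known from muscle were read from lists of regulators, further sarcomere, calcium and metabolism genes. Of 57 such genes 35 were tested, 0 were called by edgeR or DESeq2, 2 had an unadjusted p under 0.05 in edgeR (12.4% of all tested genes did), and 31 had log2 fold changes above 0 (48.3% of all) and 4 below, with a median of 0.70. Without Knockout 1 the counts were 15 above and 12 below of 27 tested, with a median of 0.05. Knockout 1 was the highest library for 27 of the 35, where it was highest for 8.65% of all tested genes.

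In the sarcomere list, Tpm1, a tropomyosin also made by many non-muscle cells, stood at 199 CPM in Knockout 1 and at 40.3 to 75.9 CPM in the other 10 libraries, with a log2 fold change of 0.70 ± 0.38 (edgeR adjusted p 0.483) that was 0.21 without Knockout 1. Tpm3, the slow tropomyosin and also a widespread form, lay between 35.0 and 53.8 CPM with Wild-Type 5 highest, a value of -0.21 ± 0.10 (edgeR adjusted p 0.438). Among calcium genes, Atp2a2, the pump of slow fibres and of most cells, lay between 93.1 and 135 CPM, and Casq2, the cardiac and slow calsequestrin, between 0.698 and 2.18 CPM. None of these 4 varied in the way of the fast genes apart from the high Tpm1 value in Knockout 1. The log2 fold changes of Atp2a2 and Casq2 were 0.11 ± 0.09 and 0.44 ± 0.30 (edgeR adjusted p 0.635 and 0.577).

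In the metabolism list, Fabp3, a fatty acid carrier of muscle and of lactating mammary epithelium, had levels of 1045 to 3441 CPM with Wild-Type 1 highest and a value of -0.27 ± 0.25 (edgeR adjusted p 0.693). Cox8b, a subunit found in muscle and in brown fat, was highest in Knockout 1 at 1.38 CPM and had a value of 1.02 ± 0.30 (edgeR adjusted p 0.269). This was the largest relative to its error among the genes named from these muscle lists. Of the regulators of muscle identity, Myod1 had 5 reads in Knockout 1 and 1 in Knockout 2 and none elsewhere, Myf6, the regulator of mature fibres, had 35 reads in Knockout 1 and at most 8 elsewhere, and Pax7 of satellite cells had none. The broadly expressed Mef2d and Mef2a had values of -0.18 ± 0.14 and 0.20 ± 0.15 (edgeR adjusted p 0.609 and 0.604). Myod1, Myf6 and Pax7 were picked out after their values had been seen.

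Marker lists of other tissues were read beside these values. Of the cardiac list, Nppa, Nppb and Myl7 had no reads in any library, and Myh6 and Actc1 were highest in Knockout 1, with 8 and 19 reads. The summed list lay between 1.81 and 4.26 CPM, lowest in Knockout 2 and highest in Knockout 5. Most of that sum was Tnni3 and Tnnt2, at 1.15 to 2.50 and 0.443 to 1.73 CPM, both highest in Knockout 5. In Knockout 1 the sum was 2.40 CPM, of which Actc1 and Myh6 made up 0.422 and 0.178 CPM. The smooth muscle and myoepithelial list, with genes such as Acta2 that line the milk-secreting alveoli, lay between 460 and 841 CPM, highest in Wild-Type 5. Neither list had a gene called by edgeR or DESeq2.

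The skin list was highest in Knockout 2, at 32.9 CPM, where Krt10, Flg and Krt1 of the upper epidermis stood at 10.6, 9.07 and 6.51 CPM, and between 0.866 and 8.19 CPM elsewhere, lowest in Knockout 1, where Krt1 and Flg had no reads. Of the 2 libraries in which Myh1 had the largest heavy chain share, Knockout 2 and Knockout 4, the skin list stood at 3.16 CPM in Knockout 4. The fibroblast list was highest in Knockout 2 at 653 CPM, with the others between 206 and 465.6 CPM.

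The summed white adipocyte list was higher in every Knockout library, at 1172 to 1728 CPM, than in any Wild-Type library, at 707 to 1039 CPM. None of its 8 genes separated the groups by itself, as 1.32% of all tested genes did. The adipokine Cfd, the largest part of the sum, lay at 625.5 to 1227 CPM against 361 to 656 CPM, and without Cfd the sums of the groups overlapped. Lep, leptin, had a log2 fold change of -0.81, below 0 unlike the other 7. edgeR called 0 of the 8 (0.055% of all tested genes), 5 had an unadjusted p under 0.05 (12.4% of all), and DESeq2 called 3 (0.837% of all). Knockout 1 was the highest library of this list, and the lowest of the milk protein list, at 414253 CPM. The B cell and lymph node list was highest in Wild-Type 5 and Wild-Type 2, at 95.7 and 68.9 CPM, with 21.8 CPM in Wild-Type 4 and 16.9 CPM in Knockout 1 and at most 4.65 CPM in the other 7. Its order of libraries thus differed from that of the muscle genes. All 5 of its tested genes were lower in Knockout, where 48.3% of all tested genes were higher. Their median log2 fold change was -2.92 (-3.81 over 4 genes without Knockout 1). All 5 had an unadjusted p under 0.05 in edgeR (12.4% of all tested genes), and 0 were called by edgeR (0.055% of all) or DESeq2 (0.837% of all). Wild-Type 1 and Wild-Type 3, at 2.03 and 4.65 CPM for the list, lay within the range of the Knockout libraries. What part the share of any of these tissues has in the muscle values was not tested.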

How the data were processed

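Stranded total RNA libraries (NEBNext Ultra II Directional) were quantified by the authors with Salmon 1.3.0 against GRCm38.p6, and the submitters' processing notes also name DESeq2 1.28.1; index contents, bias and strand settings are not given in the sources used here. The deposited values used are estimated counts, TPM and effective lengths per transcript, per the file headers; the authors' deposited table of normalized values was not used. Of 58204 transcripts, 57452 were assigned to 22196 genes by GENCODE M21 and estimated counts were summed and rounded per gene; the 752 without a match held 0.195 to 0.265% of reads. CPM uses TMM-scaled library sizes, and TPM was summed per gene. The test was edgeR 4.0.16 in R 4.3.3 (filterByExpr, TMM, robust quasi-likelihood F test, genotype as the only term, Benjamini-Hochberg over all tested genes), with SE taken from the F statistic. It was tested on simulated data. DESeq2 1.42.0 was an alternative, as were RLE size factors, no filter, transcript length offsets, a replicate block and leaving out each library. Depth limits slow genes most, since a library with 1 read of a gene cannot be told from one with none. No libraries of a group agreed within sampling noise, by a chi-square test of their counts.

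The genes described library by library are, in each role, the 3 with the highest mean TPM and the one with the smallest p-value, and every slow gene with at least 10 reads in some library; Myh4, Myh1 and Myh2 were added after their values were seen. Members and lists were chosen with earlier results of these data known, so no p is given for a sum over them or adjusted over them alone. Marker lists also covered thermogenic adipocytes, nerve and endothelium, whose summed levels lay between 1436 and 2666, 126 and 180 and 67.0 and 105 CPM. In sums over several genes, reads are compared between libraries only.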

Additional observations from a re-analysis of the deposited data

Results flagged for a closer look

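In 36 of 86 sets of values examined (each gene or sum in each genotype), the highest library stood far from the others of its group by Dixon's criterion. For independent normal values chance alone would give about 4.3. CPM of genes that share libraries are not such values, so how many chance gives here is not known. In 29 of the 36 the library is Knockout 1. Its sums were 3614 CPM for the 36 genes, 1872 for the fast myofilament genes, 597 for the common sarcomere genes, 649 for excitation and calcium and 472 for energy metabolism.

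Among fast genes, Knockout 1 stood apart with 1148 CPM in Myh4, 53.5 in Mylpf, 33.6 in Myl1, 187 in Tnnt3, 56.6 in Tnni2, 54.9 in Tnnc2, 189 in Actn3, 92.5 in Mybpc2 and 21.2 in Myoz1. Among common sarcomere genes it had 350.0 CPM in Acta1, 142 in Ttn, 66.9 in Neb and 20.9 in Tcap. For calcium handling it had 475 CPM in Atp2a1, 72.3 in Ryr1, 34.3 in Casq1, 15.3 in Cacna1s, 13.8 in Trdn and 38.9 in Pvalb. For energy it had 299 CPM in Ckm, 67.4 in Eno3, 89.3 in Pygm, 1.35 in Cox6a2 and 12.9 in Ampd1.

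Knockout 2 stood apart from the other Knockout libraries in Myh1, at 149 CPM, and in Myh2, at 24.3 CPM. Wild-Type 1 stood apart from the other Wild-Type libraries in Myh1, at 26.8 CPM, in Myh2, at 4.97 CPM, in Mybpc1, at 4.87 CPM, and in the sum of the slow myofilament genes, at 5.85 CPM. It also met the criterion in Myl2, at 0.0350 CPM, but there 1 read stands against 4 libraries with none, so the criterion was met by construction and nothing is read from it. The genes share their libraries, so these are not independent of each other.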

How the results depend on the processing

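The number of genes called over the whole table was 7, and it was 146 with DESeq2 and 0 to 28 when a library was left out (0 without Knockout 3 or Knockout 6, 2 without Knockout 1 or Wild-Type 3, 13 without Wild-Type 1 or Wild-Type 5, 14 without Wild-Type 4, 28 without Knockout 2); the cause was not tested. No member was called under any alternative, though some, Myh4 and Casq1 among them, had no adjusted p in DESeq2. The median log2 fold change of the members ran from -0.086 (without Knockout 1) to 2.74 (without Wild-Type 1), and the log2 ratio of mean sums from -0.082 to 2.97 for the same libraries, with 0.46 for geometric means. Leaving out Knockout 1 turned the direction of 9 named genes: Tnnt3 went to -0.079 (highest 2.74 over the left-out libraries), Tcap to -0.11 (2.63), Pvalb to -1.68 (2.17), Atp2a1 to -0.55 (3.13), Casq1 to -0.52 (3.22), Ryr1 to -0.19 (3.28), Ckm to -0.56 (2.75), Eno3 to -0.075 (1.71) and Myh4 to -2.71 (3.43). Myh2 went to -0.094 without Knockout 2 (2.86). The mean log2 fast to slow ratio ran from 3.94 to 5.46 in Knockout and from 5.05 to 6.03 in Wild-Type when a library was left out, and was 5.80 and 6.94 with CPM in place of TPM, 4.42 and 5.05 with paralog pairs only, and 4.13 and 5.29 with Mybpc1 among the slow genes (added after the data were seen). The labels do not say whether replicate numbers pair the samples. Deviations from the group means correlated at -0.22 to 0.19 between libraries of the same number, which does not decide it. With the number as a replicate block, without Knockout 6, 0 genes were called and Myh4 was at -0.41, against 2.71. Between 22 and 25 members were among the 100 most variable genes.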

Other observations

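Myh8, the perinatal myosin heavy chain, which is no member of the 36 genes and was picked out after its values had been seen, had 61 reads (2.24 CPM) in Knockout 5 and at most 8 reads in any other library. Knockout 5 held 59 reads of Myh4, Myh1, Myh2 and Myh7 together, so in this library Myh8 matched all 4 adult genes. Of its 31-base words 33.9% also occur in another gene, and it did not pass the filter on low counts. Myh3, the embryonic heavy chain, had 16 reads over all 11 libraries.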
